A study of Homo sapiens with 14 samples.

Results

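The genes described here are the granins and the enzymes that process prohormones, together with the binding partners of these enzymes and the calcium sensor secretagogin. They are 10 of the 60624 genes listed in each library, chosen by name for their role and found by matching Ensembl identifiers to GENCODE release 44 symbols. The granins are CHGA, CHGB, SCG2 and SCG3. The convertases are PCSK1 and PCSK2, their partners are PCSK1N and SCG5, the carboxypeptidase is CPE, and SCGN encodes secretagogin. All 10 were matched, and all 10 reached 1 TPM in at least 1 library.

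The data are bulk RNA sequencing of 14 libraries in 9 groups, all derived from MEL1, a human embryonic stem cell line with a GFP reporter in 1 of its INS alleles. Batch 1 held 1 library each of undifferentiated cells (hPSC), definitive endoderm (DE), pancreatic progenitors made by staged differentiation (PP2) and β-like cells made straight from stem cells (SC-β). Batch 2 held expandable pancreatic progenitors (ePPs) at passage 9 (ePP-P9) and passage 21 (ePP-P21) and the β-like cells made from ePPs (ePP-β), with 2 libraries each. Batch 3 held pancreatic progenitors kept for 7 days in the solvent DMSO or in I-BET151 at 1 μM, which blocks BET bromodomain proteins, with 2 libraries each. The ePPs were grown on feeder cells in a medium with EGF, bFGF, a TGF-β receptor inhibitor and I-BET151, so every ePP library had seen the inhibitor, and hPSCs also grew on feeder cells. Every library came from this 1 line. No source says whether libraries with the same group name came from separate cultures, so p-values measure the spread between libraries, which may be technical.

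Peptide hormones are made as longer precursors. In the dense-core granule, the convertases cut the precursor after pairs of basic residues and carboxypeptidase E trims the basic residues that remain. PCSK1 and PCSK2 have overlapping sites. In pancreatic islets, proinsulin is cut by both enzymes and PCSK2 is the main enzyme that releases glucagon from its precursor. Granins are acidic secretory proteins that aggregate with calcium and help load the granule. Some are cut into peptides of their own.

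The promoters of these genes are shown first. Any link between their letters and the levels described further on was not tested. Promoter windows of 300 bases, 250 before and 50 after a transcription start, were taken from RefSeq (GRCh38.p14) and were found for 8 of the 10 members in 10 windows. SCG2 and CHGB had none in the table used. The cAMP response element TGACGTCA, which reads the same on both strands, was in 2 of the 10 member windows, of CHGA and PCSK1. It was in 1.85% of all 35116 windows. In the sequences below, read 5′ to 3′ on the strand of each gene and ending just before its start, the capitals mark this element and any TGACG outside it:
CHGA, chr14:92922900-92923149, + strand: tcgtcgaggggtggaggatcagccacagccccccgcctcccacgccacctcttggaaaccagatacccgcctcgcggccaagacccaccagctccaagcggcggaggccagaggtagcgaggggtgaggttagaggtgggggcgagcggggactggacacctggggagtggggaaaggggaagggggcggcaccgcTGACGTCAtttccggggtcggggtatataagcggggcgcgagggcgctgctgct
PCSK1, chr5:96433249-96433498, - strand: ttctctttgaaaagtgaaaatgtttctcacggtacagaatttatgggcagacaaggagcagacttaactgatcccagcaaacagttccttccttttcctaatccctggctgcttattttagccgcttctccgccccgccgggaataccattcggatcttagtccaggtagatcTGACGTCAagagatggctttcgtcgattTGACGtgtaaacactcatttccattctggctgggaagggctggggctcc
The element lay at -54 to -47 in CHGA and at -77 to -70 in PCSK1, counted with the start at 0. GENCODE places no gene over the CHGA stretch. The PCSK1 stretch lies inside the PCSK1 gene, outside its exons, since longer transcripts start further upstream, and a long noncoding RNA gene runs over it on the other strand. The shorter TGACG, which overlaps the full element, was in 7 of the 10 member windows, from 6 members, and in 24.6% of all windows. TATAAA, searched on both strands, was in a second PCSK1 window and in 11.5% of all windows.

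Parts of the RE1 element, which the repressor REST binds in many neuronal and endocrine genes, were searched too, on both strands. The left part TTCAGCACC was in 0.376% of all windows and the right part GGACAGCGC in 0.581%. Only 7 windows of the 35116 held both, and SCG3 was 1 of them. The search set no order, strand or spacing for the parts, so this is not a count of complete RE1 elements. Its stretch of 26 bases lies in an exon and in the UTR of SCG3, and the capitals mark the left and the right part:
SCG3, chr15:51681511-51681536, + strand: TTCAGCACCcacagggcGGACAGCGC
The SCGN window held the right part alone, at -68 to -60. A match of letters is a description and says nothing on whether a factor bound there.

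TPM values give the share of a library per transcript length, so levels may be compared between genes. TPM keeps no read number, and depth is therefore unknown. The listed TPM summed to between 908685 and 985497, replicates correlated with r between 0.919 and 0.979 on the log2(TPM + 1) scale across genes, and all 37 mitochondrial genes were listed at 0 in every library. A value of 0 may thus be a missing estimate. Among markers of the labelled cell types, INS reached 10916.4 and 17373.5 TPM in ePP-β and 20657.5 TPM in SC-β, and 6 of the 7 β cell markers reached 1 TPM in each of these 3 libraries. IAPP was at 0.501 ± 0.0534 TPM (SD, n = 2) in ePP-β and 9.62 TPM in SC-β, and MAFA at 1.90 ± 0.213 TPM (SD, n = 2) and 0.864 TPM. SLC30A8 was at 495 ± 37.9 TPM (SD, n = 2) in ePP-β and 72.1 TPM in SC-β. GCG, the glucagon gene of α cells, reached 14107.4 and 13359.5 TPM in ePP-β and 74281.4 TPM in SC-β. In such mixed populations, more cells that express a gene and more RNA per cell cannot be told apart.

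**Figure D1:**
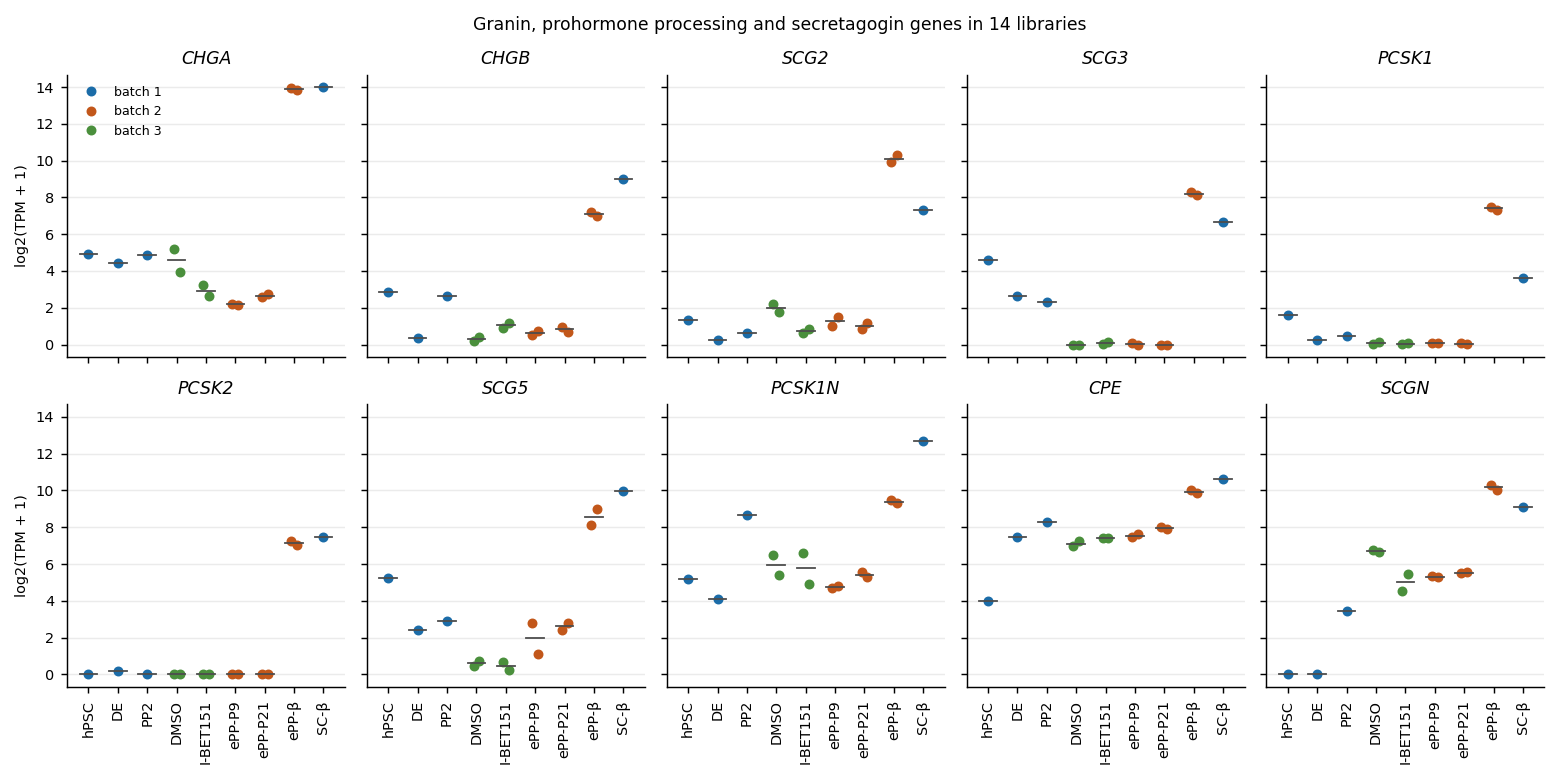
Level of each of the 10 genes as log2(TPM + 1), 1 point per library, for the 9 groups. Lines are group means and colours are batches. In every panel the ePP-β and SC-β points are above all other points, and CPE, PCSK1N and SCGN are the genes with levels over 20 TPM in all 4 ePP libraries.

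The share of the library taken by the 10 genes set the β-like libraries apart from the rest. They made up 2.30% and 2.11% of the listed TPM in the ePP-β libraries and 2.86% in SC-β. In the other 11 libraries the share was lowest in hPSC at 0.0162% and highest in PP2 at 0.0807%. All 10 reached 100 TPM in both ePP-β libraries, and 8 did so in SC-β.

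The comparison of ePP-β with ePPs asks how levels differ across the differentiation step. The labels do not give the passage of the ePPs from which the ePP-β libraries were made. The ePP medium held I-BET151 and the authors list none in the differentiation media. Differentiation and removal of the inhibitor therefore cannot be told apart. All 10 members rose. Calls rest on limma with log2(TPM + 1) values and needed both an adjusted p (Benjamini-Hochberg) under 0.05 and more than 1 log2 unit of change. Of 18076 genes tested, 17.9% were called higher and 9.86% lower. Higher genes made up 64.48% of the calls, 55.16% after median centring and 47.49% after quantile normalization. The median log2 fold change was 6.77 over the members and -0.03 over all genes tested. CHGB, SCG3, PCSK1 and PCSK2 were under 1 TPM in all 4 ePP libraries and entered the test only through ePP-β, so that their calls follow in part from the filter. The count of calls fell to 6, of 6 members tested, when either ePP-β library was left out and the filter was applied again, and was 10 when the tested genes were kept.

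Among the granins, CHGA (chromogranin A, the standard marker of neuroendocrine granules, chr14:92923150-92935285) was at 3.65, 3.44, 4.91 and 5.61 TPM in the ePPs, those of passage 9 first here and in later lists. In ePP-β it was at 16017.5 and 14842.7 TPM. No ePP library came near an ePP-β library, the means differed 3504-fold, and the log2 fold change was 11.50 (SE 0.08, limma adjusted p = 1.06e-07). SCG2 (secretogranin II, the precursor of secretoneurin, chr2:223596940-223602361) was at 1.03, 1.83, 0.782 and 1.25 TPM in the ePPs and at 974.1 and 1247.3 TPM in ePP-β. Its log2 fold change was 8.98 (SE 0.20, limma adjusted p = 3.76e-06).

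SCG3 (secretogranin III, which binds chromogranin A to the granule membrane, chr15:51681492-51721026) was listed at 0 in 3 ePP libraries and at 0.0708 TPM in the fourth. It was at 309.5 and 273.8 TPM in ePP-β. Its log2 fold change was 8.17 (SE 0.14, limma adjusted p = 2.59e-06). CHGB (chromogranin B, chr20:5911510-5925353) lay between 0.452 and 0.950 TPM in the ePPs and was at 148.5 and 126.2 TPM in ePP-β. The groups were far apart for both genes, and the log2 fold change of CHGB was 6.37 (SE 0.17, limma adjusted p = 5.52e-06). SCG3 and CHGB entered the test only through ePP-β, so their calls follow in part from the filter. Chromogranin A exceeded chromogranin B by 107.8-fold and 117.6-fold in the ePP-β libraries. CHGB was the lowest of the 10 members in both.

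The convertases were near 0 in every ePP library. PCSK1 (chr5:96390333-96434143) lay between 0.00756 and 0.0725 TPM, and PCSK2 (chr20:17226107-17484578) was listed at 0 in 3 libraries and at 0.00293 TPM in 1. In ePP-β, PCSK1 was at 180.3 and 158.6 TPM and PCSK2 at 152.4 and 132.3 TPM. Both genes thus appeared at similar levels, with a PCSK1 to PCSK2 ratio of 1.18 and 1.199. The log2 fold change was 7.35 (SE 0.15, limma adjusted p = 3.33e-06) for PCSK1 and 7.16 (SE 0.15, limma adjusted p = 3.67e-06) for PCSK2. Both entered the test only through ePP-β, so their calls follow in part from the filter.

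The partners of the convertases were already present in ePPs. PCSK1N (proSAAS, an inhibitor of PCSK1, chrX:48831096-48835610) was at 24.6, 27.2, 45.8 and 38.5 TPM in the ePPs and at 706.7 and 640.7 TPM in ePP-β. It rose 19.8-fold, with a log2 fold change of 4.31 (SE 0.10, limma adjusted p = 4.21e-06). SCG5, a chaperone that PCSK2 needs on its way to the granule and whose C-terminal peptide inhibits the enzyme (chr15:32641676-32697098), was at 6.00, 1.16, 4.43 and 5.98 TPM in the ePPs and at 282.8 and 499.0 TPM in ePP-β. The second ePP-P9 library was well under the other 3. On the log2 scale, the ePP-β libraries differed more for this gene than for any other member. Its log2 fold change of 6.27 had the widest error (SE 0.49, limma adjusted p = 0.000157).

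CPE and SCGN had the highest mean levels of the members in ePPs. CPE (chr4:165361194-165498547) was at 176.7, 195.6, 258.6 and 242.1 TPM in the ePPs and at 1027.7 and 940.5 TPM in ePP-β. This was the smallest rise among the members, 4.51-fold, with a log2 fold change of 2.18 (SE 0.08, limma adjusted p = 1.14e-05). SCGN (chr6:25652201-25701783), an EF-hand calcium sensor of endocrine cells and no granin despite its symbol, was at 39.2, 38.6, 45.0 and 45.6 TPM in the ePPs and at 1265.7 and 1047.7 TPM in ePP-β. The change was 27.5-fold, with a log2 fold change of 4.75 (SE 0.09, limma adjusted p = 3.04e-06). Some other endocrine and neuronal markers moved with the members in this comparison. The neuronal TUBB3 went the other way, from a mean of 462.9 TPM in the ePPs to 268.2 TPM in ePP-β (log2 fold change -0.79). TPH1 (192.3 ± 74.2 TPM, SD, n = 2) and FEV (302.1 ± 20.3 TPM, SD, n = 2), markers of serotonin-making enterochromaffin cells, and the neuronal STMN2 (1065 ± 12.1 TPM, SD, n = 2) averaged 0.144 ± 0.0948, 0.254 ± 0.183 and 0.959 ± 1.04 TPM in the ePPs (SD, n = 4), and their part in the members' change was not tested.

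The other processing genes moved in both directions or stayed within the fold. Of 6 other proprotein convertases considered, 5 were tested, none was called higher and 2 were called lower, with a median log2 fold change of -0.70. FURIN, the convertase of the secretory pathway in most cells, was at 28.3 ± 2.56 TPM (SD, n = 4) in the ePPs and 18.4 ± 2.60 TPM (SD, n = 2) in ePP-β and did not pass the fold (log2 fold change -0.59, limma adjusted p = 0.00505). The lower genes were PCSK4 (log2 fold change -1.05) and PCSK5 (-1.10). Of 6 other carboxypeptidases, 4 were tested and 1, CPXM2, was called higher, at 4.18 ± 0.0858 TPM (SD, n = 2) in ePP-β. It too was under 1 TPM in every ePP library. CPD, a carboxypeptidase of the trans-Golgi network, was at 90.1 ± 12.6 TPM (SD, n = 4) in the ePPs and 63.6 ± 1.91 TPM (SD, n = 2) in ePP-β, with a log2 fold change of -0.49.

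Among 7 other genes of peptide granules, 6 were tested, 4 were called higher and 1 lower. Of the 4, PTPRN, PTPRN2 and VGF were under 1 TPM in every ePP library and passed the filter only through ePP-β. PTPRN and PTPRN2, transmembrane proteins of dense-core granules, rose by 6.03 and 5.74 on the log2 scale, to 64.7 ± 3.57 and 74.9 ± 4.66 TPM (SD, n = 2). VGF, which encodes a granin-like peptide precursor, rose by 3.12, and PAM, the enzyme that amidates peptide ends, rose by 1.28 (limma adjusted p = 0.0494). QPCTL, a Golgi glutaminyl cyclase, fell by 1.85. The prohormones that these enzymes can cut are given by level: all 7 of the 9 that were tested were under 1 TPM in every ePP library and entered the test only through ePP-β, so that all being called higher follows in part from the filter. The 9 summed to at most 0.702 TPM in an ePP library and to 26960.9 and 32859.7 TPM in ePP-β. Of 8 transcription regulators of neuroendocrine genes, 6 were called higher, but 5 of these (INSM1, NEUROD1, PAX6, ISL1 and NKX2-2) likewise passed the filter only through ePP-β. RFX6, at 1 TPM or more in all 4 ePP libraries, rose by 2.63. REST, also above 1 TPM in all 4, was called lower. It averaged 18.0 ± 3.49 TPM (SD, n = 4) in the ePPs and 6.08 ± 0.340 TPM (SD, n = 2) in ePP-β, a log2 fold change of -1.41 (limma adjusted p = 0.000623).

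**Figure D2:**
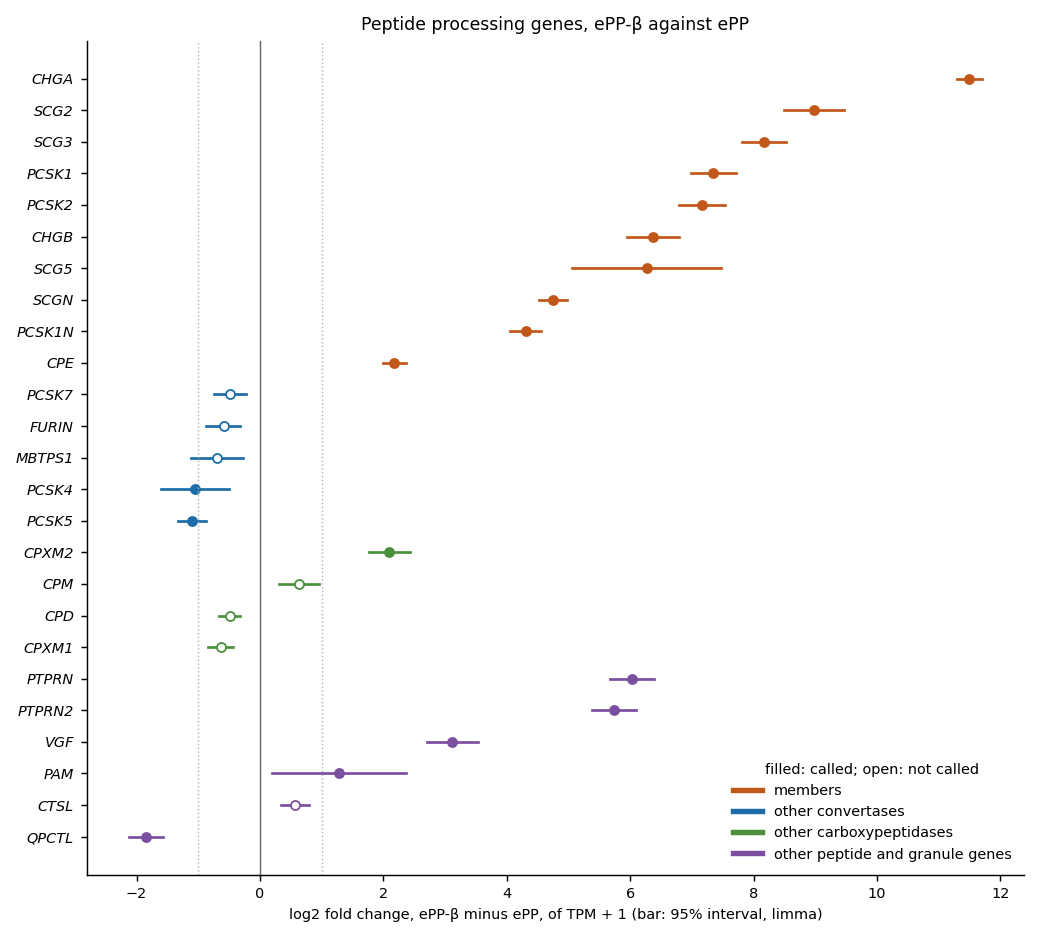
Log2 fold change (ePP-β minus ePP, on log2(TPM + 1)) of the 10 members and of the other tested convertases, carboxypeptidases and granule genes, with 95% intervals from limma. Filled points were called and open points were not, and dotted lines mark a change of 1. Members run from 2.18 for CPE to 11.50 for CHGA, while the 5 other convertases are all below 0.

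SC-β and ePP-β are β-like cells reached by the direct route and by way of ePPs. Setting them side by side addresses how far the routes lead to the same levels. There was 1 SC-β library, from batch 1, and route and batch cannot be told apart, so no test was made. A gene was counted past the fold when SC-β lay outside both ePP-β libraries and over 1 log2 unit from their mean. Of the members, 3 were higher in SC-β and 4 lower, beside 17.4% higher and 18.4% lower of 19533 genes.

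PCSK1 showed the widest gap between the β-like cells. It was at 11.1 TPM in SC-β, against 180.3 and 158.6 TPM in ePP-β, a log2 difference of -3.82 or 15.3-fold. PCSK2 was at 177.9 TPM in SC-β, just above the 152.4 and 132.3 TPM of ePP-β, with a log2 difference of 0.32. The PCSK1 to PCSK2 ratio was therefore 0.0622 in SC-β where it was near 1 in both ePP-β libraries. The partners went the other way. PCSK1N was at 6656.3 TPM in SC-β, a log2 difference of 3.30, and SCG5 at 1016.9 TPM, a log2 difference of 1.43. For each TPM of PCSK1 there were 601.3 TPM of its inhibitor PCSK1N in SC-β, and 3.92 and 4.04 TPM in ePP-β. SCG5 stood to PCSK2 as 5.72 in SC-β and as 1.86 and 3.77 in ePP-β.

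The granins did not move together between the routes. CHGA was at 16156.3 TPM in SC-β, 0.07 log2 units from ePP-β. CHGB was higher, at 504.6 TPM (log2 difference 1.87), and the CHGA to CHGB ratio was 32.0. SCG2 was lower, at 160.6 TPM (log2 difference -2.77), and so was SCG3, at 98.4 TPM (log2 difference -1.56). CPE was at 1567.3 TPM, 0.67 log2 units above ePP-β and not past the fold. SCGN was lower, at 543.2 TPM, by 1.08 log2 units, which became 0.92 after median centring and 0.98 after quantile normalization, under the threshold.

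Other cell types also differed between these libraries. The α cell markers summed to 99605.1 TPM in SC-β and to 27755.4 and 29334.5 TPM in ePP-β, all 5 above 1 TPM in each. Of these, GC at 353.9 TPM in SC-β lay within its ePP-β range of 344.6 to 564.8 TPM. The δ cell markers summed to 2840.1 TPM in SC-β, mostly SST, and to 436.2 and 501.9 TPM in ePP-β. The mesenchyme markers summed to 2486.3 TPM in SC-β, with all 5 above 1 TPM, and to 49.7 and 37.5 TPM in ePP-β. The enterochromaffin markers went the other way, with 507.2 TPM in SC-β and 1018.5 and 1106.4 TPM in ePP-β, and so did the neuron markers, with 354.2 TPM against 1405.7 and 1397.6 TPM. STMN2 alone was at 169.8 TPM in SC-β and at 1065 ± 12.1 TPM (SD, n = 2) in ePP-β, while TPH1 was at 37.9 TPM against 192.3 ± 74.2 TPM (SD, n = 2). The part of these cell types in the members' differences was not tested.

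**Figure D3:**
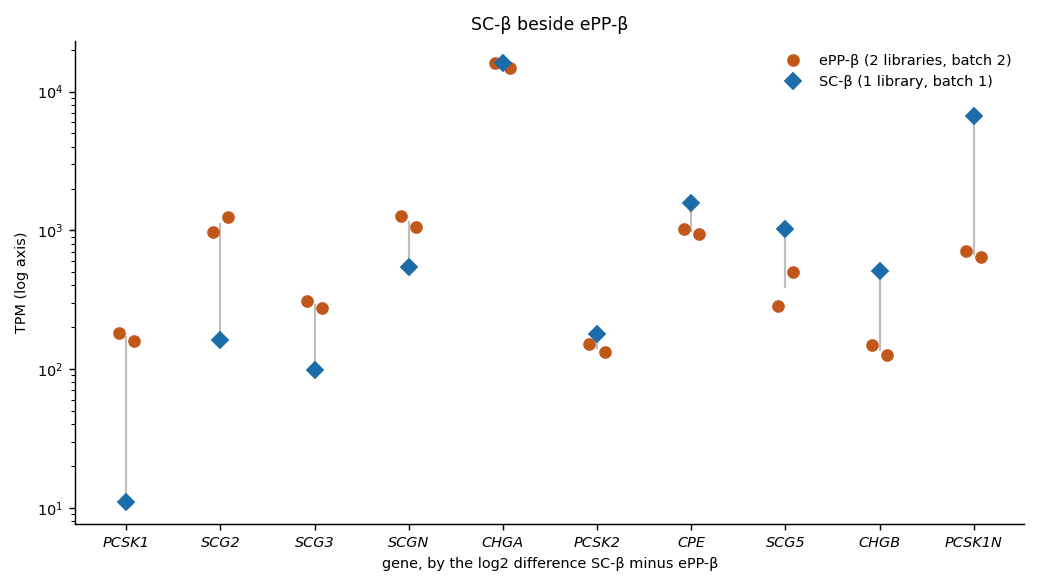
TPM (log axis) of the 10 members in both ePP-β libraries (circles) and in the single SC-β library (diamonds), ordered by the log2 difference. PCSK1 stands at the left with 11.1 TPM in SC-β, CHGA and PCSK2 nearly coincide, and PCSK1N stands at the right with 6656.3 TPM in SC-β.

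Along the direct route, the members followed different courses before the β-like stage. These libraries were of 1 batch with 1 library per stage, so the values were not tested. In hPSC, 8 of 10 members reached 1 TPM, led by SCG5 at 37.0, PCSK1N at 35.0, CHGA at 29.9 and SCG3 at 23.2 TPM. From hPSC to DE, 6 members were lower by over 1 log2 unit, beside 16.1% of 17807 genes, and 1 was higher, beside 10.8%. The higher gene was CPE, from 14.6 to 174.1 TPM. The lower ones were CHGB, SCG2, SCG3, PCSK1, SCG5 and PCSK1N, of which SCG2 (log2 difference -0.97 after quantile normalization) and PCSK1N (-0.98 after median centring) were near the threshold.

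From DE to PP2, 3 members were higher by over 1 log2 unit (27.2% of 18578 genes were higher and 9.83% lower). PCSK1N went from 16.2 to 402.2 TPM and CHGB from 0.271 to 5.31 TPM. SCGN, listed at 0 in the earlier stages, was at 9.80 TPM in PP2. From PP2 to SC-β all 10 were higher, beside 12.7% of 18894 genes higher and 22.1% lower. CHGA showed the widest difference, 9.12 log2 units, and CPE the smallest, 2.35. PCSK2 went from 0.0179 to 177.9 TPM, whereas PCSK1 went only from 0.377 to 11.1 TPM.

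Comparing PP2 with ePPs asks how the progenitors before and during expansion differ, again with 1 PP2 library of another batch. In PP2, 4 members were higher than in all 4 ePP libraries by over 1 log2 unit (25.3% of 19170 genes) and 1 was lower (7.87%). PCSK1N had 402.2 TPM in PP2 against 34.0 ± 9.89 TPM (SD, n = 4) in the ePPs, and CHGA 28.1 against 4.40 ± 1.04 TPM (SD, n = 4). CHGB (5.31 TPM) and SCG3 (3.88 TPM) were above 1 TPM in PP2 and below it in every ePP library. SCGN was the lower one, at 9.80 TPM in PP2 and 42.1 ± 3.73 TPM (SD, n = 4) in the ePPs. CPE differed by 0.51 and SCG5 by 0.61 log2 units, and the convertases were under 1 TPM in both stages. Mesenchyme markers summed to 1300.7 TPM in PP2 and to between 44.8 and 69.4 TPM in the ePPs, and their part in these differences was not tested.

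Between passages 9 and 21, no member was called. Of 15822 genes, limma called 1.07% higher and 0.0569% lower at passage 21, and the median over all tested genes was a log2 fold change of 0.13. Of the members, 6 were tested and 2 had an unadjusted p under 0.05. Over all genes, 3641 of the 15822 tested had an unadjusted limma p under 0.05. The passage 9 libraries had 24.6 and 27.2 TPM of PCSK1N and the passage 21 libraries 45.8 and 38.5 TPM. These did not overlap, and the log2 fold change was 0.68 (95% interval 0.35 to 1.00, limma adjusted p = 0.0693). CPE did not overlap either, at 176.7 and 195.6 TPM against 258.6 and 242.1 TPM. Its log2 fold change was 0.43 (95% interval 0.21 to 0.64, limma adjusted p = 0.0754). For SCGN and CHGA the groups also lay apart, with log2 fold changes of 0.22 (95% interval -0.01 to 0.44) and 0.46 (95% interval -0.02 to 0.94). The share of all genes with groups apart was not counted, so these separations are a description only. SCG2 and SCG5 overlapped, and the interval of SCG5 ran from -0.72 to 2.04. CHGB, SCG3, PCSK1 and PCSK2 stayed under 1 TPM at both passages.

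The I-BET151 experiment asks what the inhibitor does to progenitors in 7 days. No member was called. Of 16687 genes, limma called 0.00599% higher and 0.204% lower, and the median over all tested genes was a log2 fold change of 0.16. Of the members, 5 were tested and 3 had an unadjusted p under 0.05, all lower with I-BET151. Over all genes, 2536 of the 16687 tested had an unadjusted limma p under 0.05. SCGN was at 109.6 and 101.1 TPM with DMSO and at 22.4 and 43.7 TPM with I-BET151. The groups did not overlap, and the log2 fold change was -1.72 (SE 0.41, limma adjusted p = 0.159).

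CHGA was at 36.0 and 14.2 TPM with DMSO and at 8.39 and 5.12 TPM with I-BET151, a log2 fold change of -1.65 (SE 0.54, limma adjusted p = 0.251). SCG2 was at 3.64 and 2.45 TPM against 0.524 and 0.788 TPM, a log2 fold change of -1.28 (SE 0.32, limma adjusted p = 0.164). For both genes the I-BET151 libraries lay under both DMSO libraries. SCG2 was under 1 TPM in both I-BET151 libraries and entered the test only through DMSO, so its result follows in part from the filter. CPE was at 125.9 and 150.2 TPM with DMSO and at 167.6 and 167.1 TPM with I-BET151 (log2 fold change 0.28, 95% interval -0.49 to 1.05). The CPE groups did not overlap either, with I-BET151 the higher. How many of all genes lay apart in this way was not counted, so such separations are a description only. PCSK1N differed more within the groups than between them, at 89.2 and 41.5 TPM against 96.1 and 29.6 TPM. Of the 5 members not tested, CHGB was at 0.134 and 0.323 TPM with DMSO and at 0.852 and 1.27 TPM with I-BET151, without overlap. SCG3, PCSK1, PCSK2 and SCG5 were under 1 TPM in all 4 libraries.

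The calls differed between fits. With all 10 replicated libraries in 1 fit, which joins batches 2 and 3, CHGA, SCG2 and SCGN were called, with adjusted p of 0.0335, 0.0260 and 0.00842. Without the second I-BET151 library, where the lone I-BET151 library is assumed to vary like DMSO, SCGN was called, at a log2 fold change of -2.18 (limma adjusted p = 0.0136), and over all alternatives tried its adjusted p ran from 0.00842 to 0.543. Some markers of other cell types differed between these libraries too. The enterochromaffin markers summed to 69.0 and 30.9 TPM with DMSO and to 8.60 and 12.6 TPM with I-BET151, mostly DDC, with TPH1 under 1 TPM in all 4 libraries. The α cell markers summed to 1051.3 and 1223.6 TPM against 65.6 and 61.5 TPM, mostly TTR. GCG did not follow this sum. It was at 0.144 to 0.249 TPM with DMSO, and with I-BET151 at 9.21 TPM in 1 library and listed at 0 in the other. The neuron markers summed to 118.3 and 21.1 TPM against 805.6 and 119.4 TPM, nearly all of it TUBB3, while SNAP25 was at 3.63 and 5.84 TPM against 2.84 and 5.98 TPM and the other 4 were under 1 TPM throughout. The hormone INS was at 0.0457 and 0.187 TPM with DMSO and at 3.03 and 0.0199 TPM with I-BET151. The part of these markers in the members' values was not tested.

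**Figure D4:**
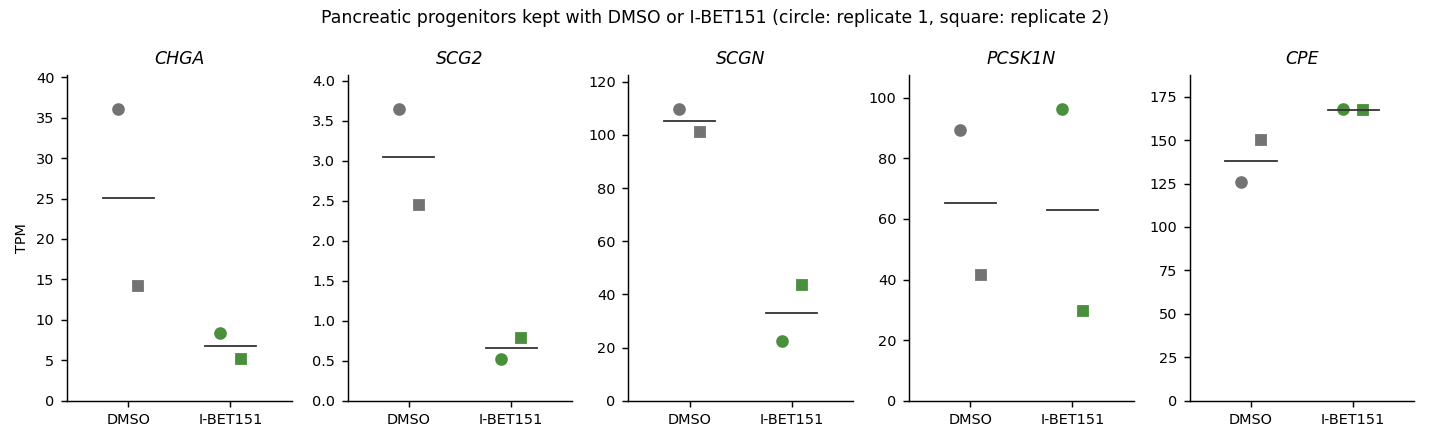
TPM of the 5 tested members in progenitors kept with DMSO or I-BET151, 1 point per library (circle for replicate 1, square for replicate 2), with lines at the group means and axes starting at 0. For CHGA, SCG2 and SCGN both I-BET151 points lie under both DMSO points, for CPE both lie above them, and for PCSK1N the groups overlap.

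The genes most like the members were found by Pearson's r over the 14 libraries between a gene and the mean of the 10 members on log2(TPM + 1). The libraries share batches and cell states, so r is a description only. The 8 protein-coding genes with the highest r were GHRL (r = 0.998), SPOCK3, ASIC2 and CRYBA2 (each 0.996), and GPR119, BTBD17, PTPRN2 and TSPAN32 (each 0.995). GHRL, the ghrelin gene, had 42.9 and 49.4 TPM in ePP-β, 45.1 TPM in SC-β and at most 0.172 TPM in an ePP library. CRYBA2 had 1070.8 and 1063.9 TPM in ePP-β and 1400.6 TPM in SC-β. Among the members, PCSK2 followed the mean of the other 9 most closely (r = 0.991) and SCGN least (r = 0.669), followed by CPE (r = 0.728) and PCSK1N (r = 0.850). These were also the 3 members with over 20 TPM in all 8 ePP, DMSO and I-BET151 libraries.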

How the data were processed

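RNA of 14 libraries of MEL1 cells was sequenced. The authors aligned paired-end reads to GRCh38 with HISAT2 2.1.0, assembled transcripts with StringTie and deposited 1 TPM value per gene and library. No other scaling is stated. Which annotation was used, and whether strand was, is not given in the sources used here. The authors tested counts with DESeq2, which cannot be applied to TPM.

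Groups came from the sample titles and batches from the descriptions. Symbols came from GENCODE release 44 (60370 of 60624 identifiers matched). Genes that reached 1 TPM in 2 or more libraries of a fit were tested on log2(TPM + 1), which understates changes of low genes, with limma 3.58.1 in R 4.3.3 (eBayes with trend, two-sided, Benjamini-Hochberg over all tested genes). Each fit held only the groups compared, within 1 batch, and both passages weighed equally in the ePP level. Calls needed an adjusted p under 0.05 and a log2 fold change beyond 1. The fit was tested on simulated data. Comparisons with a single library had no test. ± is the SD over libraries.

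All 10 members were named in each comparison, listed genes where called or compared with a member, and the 8 protein-coding genes most like the members with at least 10 TPM in 1 library. One gene of the convertase list is not reported here. Members, lists and tests were chosen with earlier results of these data known. Motifs were searched in the whole 300-base window, a choice made after the windows were seen. Other pseudocounts, filters, scalings, spread estimates, the replicate block and left-out libraries were tried as alternatives. One was added after seeing the data, in which the tested genes were kept when a library was left out.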

Additional observations from a re-analysis of the deposited data

Results flagged for a closer look

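In the ePPs, 1 library stood apart from the other 3 for SCG3, at 0.0708 TPM where the others were listed at 0. The same held for PCSK2, at 0.00293 TPM in 1 library and listed at 0 in the other 3. Both values are far under 1 TPM, in different libraries, and the rule behind these flags marks about 1 in 20 groups of ordinary values by chance, a rate that need not hold for groups with 3 exact zeros. In ePP-β both genes were above 100 TPM.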

How the results depend on the processing

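In ePP-β against ePP, all 10 members kept their direction and their call under every scaling, pseudocount, filter and spread estimate, with 6 to 10 called when 1 library was left out, since 4 members then failed the filter, and 10 when tested genes were kept. Over all genes, higher calls went from 3237 to 2058 at a filter of 5 TPM and lower calls from 1783 to 2866 after quantile normalization. With adjusted p alone they were 5276 and 5105. At passage 21 against 9, no member was called under any alternative. With 1 library left out, SCG5 ran from -0.19 (without the second ePP-P9 library) to 1.51. All calls there, 178 of 15822 (3641 at unadjusted p under 0.05), were 0 without a filter (4677) or after median centring (4176), 13 after quantile normalization and 1 in limma without trend or in the fit of all 10. With 1 library left out they ran from 0 (without the first ePP-P21 library) to 478 (without the second ePP-P9 library). For I-BET151, the members called were 3 in the fit of all 10 libraries and 0 to 1 with 1 library left out. PCSK1N ran from -1.02 to 0.65, being 0.36 without the first DMSO library and 0.65 without the second I-BET151 library. Over all genes, 35 calls became 0 with either smaller pseudocount or no filter, 120 after median centring, 138 after quantile normalization and 1673 in the fit of all 10. With 1 library left out they ran from 107 (without the first DMSO library) through 268 and 667 to 1034 (without the second I-BET151 library), each time with 1 group of 1 library assumed to vary like the other.

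With the replicate block, I-BET151 gave 3 members (CHGA at adjusted p = 0.0156, SCG2 at 0.0371, SCGN at 0.0194) and 2294 calls in all. SCG2 again entered this test only through DMSO. The passages gave 0 members and 66 calls, and ePP-β gave 10 members and 5032 calls. Replicate differences correlated at r = 0.675 between DMSO and I-BET151 and between -0.009 and 0.042 among the batch 2 groups. The labels state no shared batch or day for a number, so no pairing was assumed. The cause of these changes was not tested. With 2 libraries per group and unknown depth, moderate changes of low genes could not be resolved. Larger changes of genes at higher levels could go uncalled too. In the I-BET151 fit without the block, SCGN was not called at a log2 fold change of -1.72 (limma adjusted p = 0.159). A missing call is therefore no evidence of an unchanged level.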
